A study of Mus musculus with 12 samples.

Results

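Glucocorticoid-induced genes, a group of 9 transcripts known to rise when the glucocorticoid receptor is active, were followed in mouse forestomach after alcohol drinking. The group was Fkbp5, Tsc22d3, Zbtb16, Sgk1, Klf9, Ddit4, Errfi1, Mt1 and Mt2, taken by name. Every oligonucleotide probe that carried one of these names in the array files was used, which gave 14 probes for 8 of the 9 genes among 41174 probes in all. No probe carried the name Zbtb16, a zinc-finger transcription factor, and it was not analysed here. The array design measured each gene of the group with 1 to 3 probes, and 13 of the 14 passed the filter on low signal. The brightest of a gene's probes stood for it in the tests across 20720 genes, and is called its main probe below.

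The forestomach is a stomach compartment of rodents whose lining is keratinised and squamous. All samples came from adult wild-type C57BL/6J mice, and whole forestomach was frozen for RNA. In the 40-week group (n = 4) the mice drank 15% alcohol for 40 weeks, and the labels do not mention saccharin. In the 4-week group (n = 4) they drank 20% alcohol in a sweet supersaccharin solution for 4 weeks. In the control group (n = 4) they drank supersaccharin with 0% alcohol. Alcohol concentration and duration therefore differ together between the alcohol groups, and the same control samples served both. The 40-week group had no controls of its own age, and no duration is given for the control group. At 40 weeks against control, alcohol thus cannot be told apart from age or from a difference in saccharin. The question was whether alcohol drinking changes forestomach gene expression. Each array carried forestomach RNA in the red dye Cy5 and a commercial pool of mouse reference RNA in the green dye Cy3, always in that orientation. A value is thus a log2 ratio of forestomach over pool, and a difference between groups is a difference of such ratios. The labels do not state whether each replicate is its own animal, and p-values therefore measure only how far these samples differ, which may be technical.

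Glucocorticoids, the steroid hormones of the adrenal cortex, bind the receptor encoded by Nr3c1, which is held ready in the cytoplasm by HSP90 chaperones and moves to the nucleus once bound. There it attaches to palindromic response elements and switches on genes that damp inflammation, slow growth signalling and alter metabolism. Fkbp5 encodes a co-chaperone that lowers the receptor's affinity for hormone, a short feedback loop. Metallothioneins answer to glucocorticoids and also to zinc and other metals through the factor MTF1.

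Promoter sequences are shown for Sgk1, Mt1 and Mt2, whose windows held the full glucocorticoid element or 3 or more metal response cores. Each RefSeq window (mouse build GRCm38.p6) runs from 250 bases before the gene's start to 50 bases after it. The 8 genes matched 16 windows. The full glucocorticoid response element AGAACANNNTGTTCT, a palindrome that reads alike on both strands, was found in the window of 1 gene, Sgk1, and in 3 of all 32851 windows (0.00913%). In the Sgk1 window (chr10:21993640-21993939, plus strand) the element, in capitals, begins 189 bases before the start. The half-sites AGAACA and TGTTCT, which the full element also contains, were found in windows of 2 of the 8 genes, Tsc22d3 and Sgk1, against 21.3% of all 27025 genes. Counted by window, they were in 4 of the 16, against 19% of all windows. The core of the metal response element was searched as TGCACNC and TGCGCNC on both strands. It was found in windows of 4 of the 8 genes (Sgk1, Ddit4, Mt1 and Mt2), against 28.2% of all genes. Counted by window, the core was in 4 of the 16, against 25.7% of all windows, so the shares were close. Sgk1 had several windows, and its metal core lay in another window than its full glucocorticoid element. The Mt1 window (chr8:94178839-94179138, plus strand) held 3 cores and the Mt2 window (chr8:94172368-94172667, plus strand) held 4, which are in capitals. A match is a description of letters in these windows and not a measured binding site.
Sgk1 promoter: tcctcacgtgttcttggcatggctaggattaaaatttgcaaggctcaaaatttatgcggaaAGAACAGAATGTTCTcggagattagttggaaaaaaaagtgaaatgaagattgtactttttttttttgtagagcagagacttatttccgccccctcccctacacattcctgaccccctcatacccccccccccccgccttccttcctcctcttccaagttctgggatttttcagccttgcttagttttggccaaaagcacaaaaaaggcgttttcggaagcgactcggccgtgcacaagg
Mt1 promoter: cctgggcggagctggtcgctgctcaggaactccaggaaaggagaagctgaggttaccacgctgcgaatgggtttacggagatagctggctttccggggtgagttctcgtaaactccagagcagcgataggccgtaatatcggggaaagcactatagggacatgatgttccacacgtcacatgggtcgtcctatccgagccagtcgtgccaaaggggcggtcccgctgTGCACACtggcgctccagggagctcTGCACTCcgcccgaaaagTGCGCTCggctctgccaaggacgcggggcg
Mt2 promoter: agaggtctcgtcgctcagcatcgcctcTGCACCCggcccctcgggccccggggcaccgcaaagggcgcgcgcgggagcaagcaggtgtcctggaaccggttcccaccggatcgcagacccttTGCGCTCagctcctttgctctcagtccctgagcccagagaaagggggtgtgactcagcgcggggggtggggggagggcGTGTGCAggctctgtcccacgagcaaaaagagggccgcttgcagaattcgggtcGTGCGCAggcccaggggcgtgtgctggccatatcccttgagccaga

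The oligonucleotides that the strongest results rest on are also shown, in lower case. The Fkbp5 upstream probe lies at chr17:28574995-28575054 on the minus strand of mouse build mm9, the build of the array files. That is 38.1 kb upstream, along the gene, of the main Fkbp5 probe at chr17:28536878-28536937. The Mt1 probe lies at chr8:96704011-96704070 on the plus strand of mm9 and was spotted 10 times on each array. No mm9 annotation was used here, so exons and introns are not assigned to the probes.
Fkbp5 upstream probe: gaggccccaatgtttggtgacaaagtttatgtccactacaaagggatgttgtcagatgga
Mt1 probe: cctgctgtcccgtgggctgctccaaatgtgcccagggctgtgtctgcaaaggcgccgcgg

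Some features of the arrays touch the results. The 4-week arrays lay on slide 2 and the control arrays on slide 1, so slide and alcohol cannot be told apart at 4 weeks. Median net Cy5 signal was 40.1 to 104 on the 4-week arrays and 107 to 142 on the control arrays. The deposited 40-week ratios spread less over probes (SD 1.11 to 1.18) than the 4-week (SD 1.58 to 1.67) and control ratios (SD 1.62 to 1.84). Squamous epithelium markers, all 10 of which were well above background, averaged 2.95 to 3.29 in the 40-week samples, 3.73 to 4.48 in the 4-week samples and 5.20 to 5.65 in the control samples as log2 ratios. At 4 weeks against control their median difference of -1.21 as a ratio stood beside 0.18 in Cy5 alone (0 of 10 called) and 1.34 in the pool's Cy3 channel (8 of 10 called, all higher). In the 40-week samples against control, where the channels were not used here, 10 of 10 squamous, 6 of 6 smooth muscle, 4 of 5 endothelium and 2 of 6 adipocyte markers fell, with medians of -2.11, -2.08, -1.16 and -2.69. So did 2 of 5 neuron and glia, 1 of 5 pancreas and 0 of 7 glandular stomach markers, while 42.6% of all genes were called. Every marker of these lists had a control log2 ratio over 1.5. In that range the median difference over the whole array was -1.06, with 6.07% of genes above 0. Control replicate 3 carried pancreas markers (mean log2 ratio 6.63) and control replicate 4 glandular stomach markers (5.63), and 4-week replicate 2 had the highest glandular stomach mean of its group (3.65). Xist, a female-specific transcript, had log2 ratios of 1.96 and 1.55 in 40-week replicates 3 and 4 and of -9.70 to -5.40 in the other 10 samples. The Y-chromosome genes Ddx3y (-4.26 and -4.02), Eif2s3y (-5.67 and -6.28) and Kdm5d (-3.14 and -2.98) were low in the same replicates. All of them were above 0 in the other 10 samples. The 40-week group thus held both a female and a male pattern and the other groups a male one, although the labels give no sex. The part of these differences in the results below was not tested, and the values of the genes nearest to or past the threshold are also given without these arrays.

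**Figure D1:**
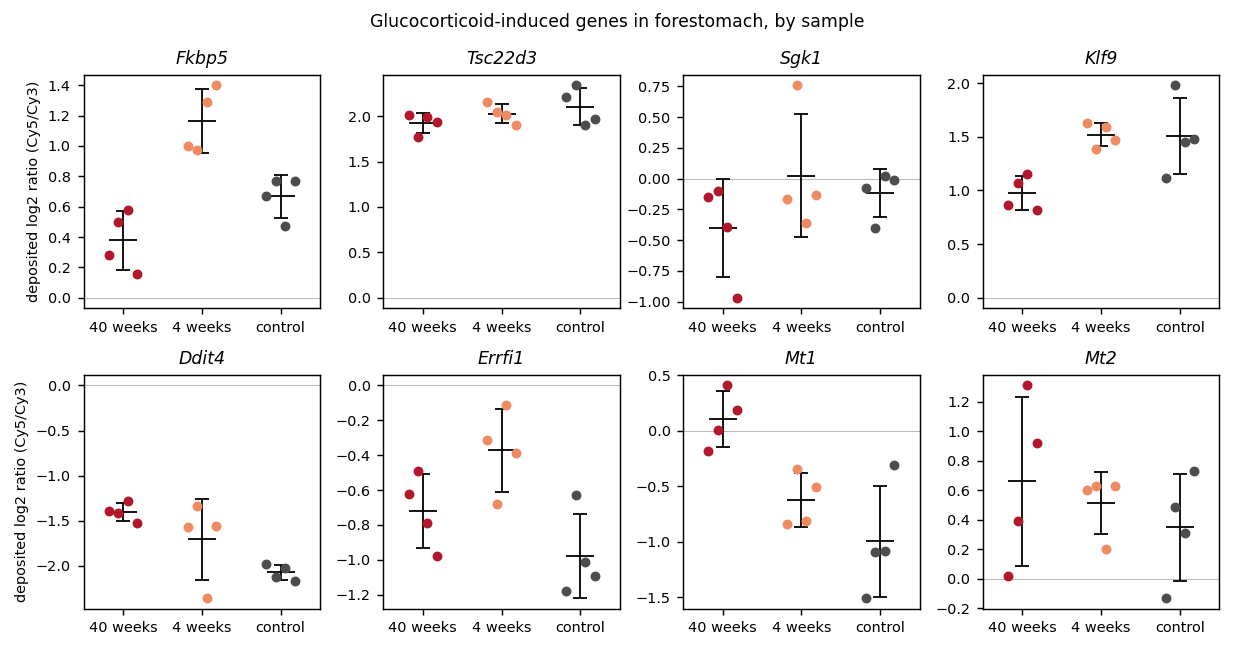
Deposited log2 ratio of forestomach RNA over the reference pool (vertical axis) for the main probe of each of the 8 genes, with 40-week samples left, 4-week samples in the middle and control samples right. Points are samples and bars are group means with SD (n = 4). Mt1 and Ddit4 lie higher at 40 weeks than in every control sample, and Fkbp5 lies higher at 4 weeks than in every control sample.

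At 4 weeks of 20% alcohol no gene of the group passed the test, and the differences from control that were best separated from the replicate spread were higher ratios of Errfi1 and Fkbp5. Errfi1 was 1.54-fold and Fkbp5 1.35-fold higher, while Tsc22d3 and Klf9 differed from control by no more than 0.10 on the log2 scale. In limma's fit across all genes on the scanner ratios of the 8 arrays, 0 of 8 genes had an adjusted p under 0.05, against 1.11% of all genes. At an unadjusted p under 0.05 there were 2 of 8, against 18% of all genes. The difference was above 0 for 6 of 8 genes, against 47% of all genes, and the median difference was 0.36, against -0.02 over all genes. In whole tissue, fewer cells of a type and less RNA per cell cannot be told apart.

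Fkbp5, the receptor's co-chaperone, had log2 ratios of 0.89, 0.88, 1.14 and 1.22 in the 4-week samples, against 0.60, 0.69, 0.42 and 0.69 in the control samples. Every 4-week sample was above every control sample. Groups that did not overlap, in either direction, were found for 1 of the 8 genes and for 11.8% of all genes. The difference was 0.43 ± 0.12 (SE), with an unadjusted p of 0.00713 and an adjusted p of 0.131 by limma, and it was 0.44 (adjusted p = 0.174) without the arrays that carried markers of other organs. In Cy5 alone the log2 signal was 9.84, 9.49, 10.03 and 10.23 in the 4-week samples, against 9.46, 9.59, 9.32 and 9.57 in the control samples. There 4-week replicate 2 fell among the controls, and the difference was 0.41 ± 0.17 (adjusted p = 0.268). In Cy3, which carried the same pool on every array, the Fkbp5 difference was -0.08 ± 0.07 (adjusted p = 0.476). The gene's other probes did not separate the groups: the upstream probe differed by -0.23 ± 0.23 (adjusted p = 0.644) and a nearby one, 0.715 kb from the main probe, by 0.10 ± 0.11 (adjusted p = 0.673).

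Tsc22d3, which encodes the anti-inflammatory leucine zipper protein GILZ, had log2 ratios of 2.10, 2.00, 1.95 and 1.82 in the 4-week samples, against 2.17, 2.29, 1.87 and 1.92 in the control samples. The groups overlapped, and the difference was -0.10 ± 0.13 (limma adjusted p = 0.735). Its other probes differed by 0.05 and 0.07, with adjusted p of 0.853 and 0.867. Klf9, a zinc-finger transcription factor that glucocorticoids induce in many tissues, had ratios of 1.54, 1.33, 1.49 and 1.34 in the 4-week samples, against 1.05, 1.91, 1.40 and 1.41 in the control samples. Both the lowest and the highest Klf9 value were control samples, and the difference was -0.01 ± 0.18 (adjusted p = 0.975). A second Klf9 probe, 0.801 kb away, differed by 0.34 ± 0.22 (adjusted p = 0.466). Another probe, at chr19:23215117-23215176 on the opposite strand, bears the name Gm9971 in the files and belongs to Klf9 only by a synonym in the reference gene table; it differed by -0.29 ± 0.23 (adjusted p = 0.537).

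Sgk1, a serum- and glucocorticoid-regulated kinase that controls ion transport, had log2 ratios of -0.17, 0.75, -0.36 and -0.13 in the 4-week samples, against -0.10, -0.42, 0.00 and -0.05 in the control samples. The value of 4-week replicate 2 stood above all others, and the groups overlapped, with a difference of 0.17 ± 0.23 (limma adjusted p = 0.760). The same array was low in the pool's channel, where Sgk1 had log2 Cy3 signals of 14.84, 13.97, 14.80 and 14.49 in the 4-week samples, against 14.80, 14.78, 14.81 and 14.69 in the control samples. In Cy5 alone Sgk1 differed by -0.12 ± 0.15 (adjusted p = 0.737). A second Sgk1 probe, 101 kb upstream of the first, was not well above background in Cy5 on any of the 8 arrays and was left out.

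Errfi1 encodes an inhibitor of the EGF receptor family and Ddit4 (REDD1) an inhibitor of mTORC1, so both are brakes on growth signalling. Errfi1 had log2 ratios of -0.32, -0.68, -0.11 and -0.39 in the 4-week samples, against -1.18, -0.65, -1.03 and -1.12 in the control samples. Only control replicate 2 reached the 4-week range, just above 4-week replicate 2. The difference was 0.62 ± 0.16, with an unadjusted p of 0.00445 and an adjusted p of 0.107 by limma, and it was 0.64 (adjusted p = 0.128) without the arrays that carried markers of other organs. In Cy5 alone Errfi1 differed by 0.59 ± 0.20 (adjusted p = 0.206), and in Cy3 by -0.06. Ddit4 had ratios of -1.56, -1.30, -2.33 and -1.5 in the 4-week samples, against -2, -2.14, -2.05 and -2.21 in the control samples. All 4-week samples but replicate 3, the lowest of all 8, were above the controls, and the difference was 0.43 ± 0.21 (adjusted p = 0.324).

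The metallothioneins Mt1 and Mt2 encode small cysteine-rich proteins that bind zinc and copper. Mt1 had log2 ratios of -0.74, -0.27, -0.75 and -0.40 in the 4-week samples, against -1.53, -1.12, -1.09 and -0.35 in the control samples. The highest of each group were 4-week replicate 2 and control replicate 4, which also had their group's highest glandular stomach markers, and the difference of 0.48 ± 0.24 did not pass (limma adjusted p = 0.336). The 10 spots of the Mt1 probe differed within an array by an SD of 0.11 to 0.28 before normalization. Also before normalization, the arrays differed by an SD of 0.67 within the 4-week group and 0.82 within the control group. After normalization these array SDs were 0.24 and 0.49. An array's value is a mean over the 10 spots, so these SDs cannot be set directly against those of single spots. The pool's channel differed for Mt1 too: log2 Cy3 signals were 17.10, 17.02, 17.10 and 17.11 in the 4-week samples, against 17.29, 17.27, 17.39 and 17.15 in the control samples. Those Cy3 groups did not overlap, which was so for 20.1% of all genes, and the Cy3 difference was -0.20 ± 0.06 (adjusted p = 0.0881), beside a Cy5 difference of 0.27 ± 0.23 (adjusted p = 0.600). Mt2 had ratios of 0.66, 0.71, 0.28 and 0.77 in the 4-week samples, against -0.17, 0.46, 0.29 and 0.70 in the control samples. The Mt2 groups overlapped, with a difference of 0.29 ± 0.20 (adjusted p = 0.486).

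With the channels fitted apart, 0 of 8 genes passed in Cy5 (0.367% of all genes) and 0 of 8 in Cy3 (8.66% of all genes). The Cy5 difference was above 0 for 7 of 8 genes, against 49.5% of all genes, with Sgk1 the exception, and the median Cy5 difference was 0.22 over the 8 genes, against 0 over all genes. When 4 weeks and control were compared in the deposited ratios of all 12 samples, 0 of 8 passed, against 6.01% of all genes. The nearest to the threshold there were Errfi1 at 0.60 ± 0.17 (limma adjusted p = 0.0544) and Fkbp5 at 0.50 ± 0.14 (adjusted p = 0.0629). Centring the arrays on their median in place of the intensity-dependent correction shifted the median difference over the whole array to -0.11. Under that setting Mt1 was at -0.01, still above that median, while Sgk1 at -0.19 and Mt2 at -0.28 were below it. The sign of Mt1, Mt2 and Sgk1 at 4 weeks thus depended on the normalization. Under every alternative Errfi1 was at 0.35 or more and Fkbp5 at 0.28 or more as a ratio.

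**Figure D2:**
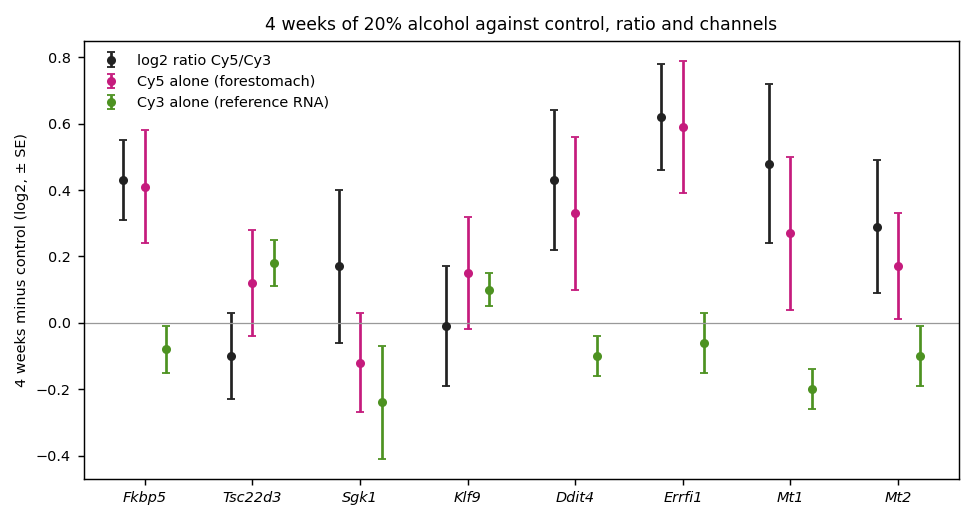
Difference between 4-week and control samples, in log2 units with SE (n = 4 each), for the 8 genes in the forestomach channel (Cy5), the pool's channel (Cy3) and their ratio. Errfi1 and Fkbp5 differ in Cy5 by 0.59 and 0.41 and in Cy3 by -0.06 and -0.08, while the Mt1 ratio difference of 0.48 joins 0.27 in Cy5 and -0.20 in Cy3.

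In the ratios as deposited, Mt1 and Ddit4 were higher and Klf9 lower after 40 weeks of 15% alcohol than in controls. Mt1 rose 2.15-fold, Ddit4 rose 1.59-fold and Klf9 fell to 0.691 of its control ratio. Of these calls, that of Mt1 was kept when the columns were scaled to one spread or quantile-normalized, whereas Ddit4 (-0.06 and -0.11) and Klf9 (-0.02 and -0.16) no longer passed. As deposited, Mt2, Errfi1, Sgk1, Tsc22d3 and Fkbp5 did not pass at their main probes. In limma's fit of the deposited log2 ratios of 12 samples, 3 of 8 genes were called, against 42.6% of all genes, so the share lay close to that of the whole array. Of the 8 differences, 4 were above 0, against 44.9% of all genes, and the median was 0.04, against -0.08 over all genes.

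Mt1 had deposited log2 ratios of -0.18, 0.01, 0.41 and 0.19 in the 40-week samples, against -1.51, -1.09, -1.08 and -0.31 in the control samples. Every 40-week sample lay above every control sample, which was so, in either direction, for 2 of the 8 genes and 42.4% of all genes. The difference was 1.10 ± 0.23 (limma adjusted p = 0.00286). It was 1.02 (adjusted p = 0.00474) with the columns scaled to one spread and 1.03 (adjusted p = 0.00542) after quantile normalization. It was 1.41 (adjusted p = 0.000727) without the arrays that carried markers of other organs and 0.91 (adjusted p = 0.0487) without 40-week replicates 3 and 4. Mt2 had ratios of 0.02, 0.39, 1.31 and 0.92 in the 40-week samples, against -0.13, 0.49, 0.31 and 0.73 in the control samples. For Mt2, 40-week replicates 3 and 4 were the highest of these 8 samples and the groups overlapped, with a difference of 0.31 ± 0.27 (adjusted p = 0.372).

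Ddit4 had deposited ratios of -1.39, -1.42, -1.28 and -1.53 in the 40-week samples, against -1.98, -2.12, -2.03 and -2.17 in the control samples. The groups did not overlap, and the difference was 0.67 ± 0.19 (limma adjusted p = 0.0131). That direction was not kept when the smaller spread of the 40-week columns was removed: the difference was -0.06 (adjusted p = 0.805) after scaling and -0.11 (adjusted p = 0.642) after quantile normalization. Without 40-week replicates 3 and 4 it was 0.67 with the call lost (adjusted p = 0.0764), and without the other-organ arrays it was 0.64 (adjusted p = 0.0458). Errfi1 had ratios of -0.62, -0.49, -0.79 and -0.98 in the 40-week samples, against -1.18, -0.63, -1.01 and -1.09 in the control samples. The Errfi1 groups overlapped and the difference of 0.25 ± 0.17 did not pass (adjusted p = 0.241).

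Klf9 had deposited ratios of 0.86, 1.07, 1.15 and 0.82 in the 40-week samples, against 1.12, 1.98, 1.45 and 1.48 in the control samples. Control replicate 1 fell within the 40-week range. The difference of -0.53 ± 0.17 passed (limma adjusted p = 0.0233), but was -0.02 (adjusted p = 0.957) after scaling and -0.16 (adjusted p = 0.502) after quantile normalization. Without control replicate 2, the highest value, it was -0.38 (adjusted p = 0.0558), and the call was also lost without 40-week replicate 1 (-0.50, adjusted p = 0.0623) or 40-week replicate 4 (-0.48, adjusted p = 0.0639). It was -0.54 (adjusted p = 0.100) without 40-week replicates 3 and 4 together and -0.57 (adjusted p = 0.0697) without the arrays that carried markers of other organs. The second Klf9 probe differed by 0.00 ± 0.21 (adjusted p = 0.994). The probe named Gm9971 fell by 0.97 (SE 0.20, adjusted p = 0.00219).

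Sgk1 had deposited ratios of -0.15, -0.10, -0.39 and -0.97 in the 40-week samples, against -0.08, -0.40, 0.02 and -0.01 in the control samples. The lowest was 40-week replicate 4, and the overlapping groups differed by -0.28 ± 0.25 (limma adjusted p = 0.391). Tsc22d3 had ratios of 2.01, 1.77, 1.99 and 1.94 in the 40-week samples, against 2.21, 2.34, 1.90 and 1.97 in the control samples, a difference of -0.18 ± 0.12 (adjusted p = 0.273). These groups overlapped as deposited, yet after scaling the Tsc22d3 difference was 0.73 (adjusted p = 0.00388) and after quantile normalization 0.52 (adjusted p = 0.0159). Its other probes fell by 0.41 (SE 0.12, adjusted p = 0.0128) and 0.47 (SE 0.17, adjusted p = 0.0449) as deposited. After scaling these were 0.29 and -0.19, so the direction of Tsc22d3 at 40 weeks depended on the probe and on the scaling.

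The upstream probe of Fkbp5 was higher at 40 weeks than in controls, while the main probe did not pass. At the main probe the deposited ratios were 0.28, 0.50, 0.58 and 0.16 in the 40-week samples, against 0.67, 0.77, 0.47 and 0.77 in the control samples, which overlapped and differed by -0.29 ± 0.14 (limma adjusted p = 0.126). At the upstream probe they were 2.5, 1.91, 2.18 and 2.58 in the 40-week samples, against 0.79, 1.02, -0.12 and 0.40 in the control samples. All 40-week samples were above all controls there, and the difference was 1.77 ± 0.25, 3.42-fold (adjusted p = 0.000208, against 42.2% of all kept probes called). Scaling gave 2.57 (adjusted p = 2.43e-05) and quantile normalization 2.46 (adjusted p = 5.84e-05). Without 40-week replicates 3 and 4 it was 1.69 (adjusted p = 0.00612), and without the other-organ arrays 1.39 (adjusted p = 0.00192). The nearby Fkbp5 probe had ratios of 0.32, 0.54, 0.55 and 0.68 in the 40-week samples, against 0.98, 1.02, 0.84 and 0.90 in the control samples. Its groups did not overlap and it fell by 0.41 (SE 0.14, adjusted p = 0.0372), a call that scaling (-0.12, adjusted p = 0.537) and quantile normalization (-0.18, adjusted p = 0.360) removed.

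The difference between 2 probes of a gene on the same array was chosen for study after the values were seen. For Fkbp5, the upstream minus the main probe was 2.22, 1.41, 1.60 and 2.43 in the 40-week samples, -0.41, -0.86, -1.33 and -0.88 in the 4-week samples and 0.12, 0.25, -0.59 and -0.38 in the control samples. All 40-week samples lay above all others, with means of 1.91 ± 0.49 in 40-week samples, -0.87 ± 0.37 in 4-week samples and -0.15 ± 0.40 in control samples (SD, n = 4 each). The measure was picked for that separation and gets no test. After scaling the means were 2.53 in 40-week samples, -0.74 in 4-week samples and -0.11 in control samples. For Klf9, the second minus the main probe averaged 0.16 ± 0.13 in 40-week samples, 0.01 ± 0.40 in 4-week samples and -0.38 ± 0.29 in control samples. For Tsc22d3 the difference of 2 probes averaged -0.52 ± 0.10 in 40-week samples, -0.12 ± 0.08 in 4-week samples and -0.28 ± 0.15 in control samples.

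**Figure D3:**
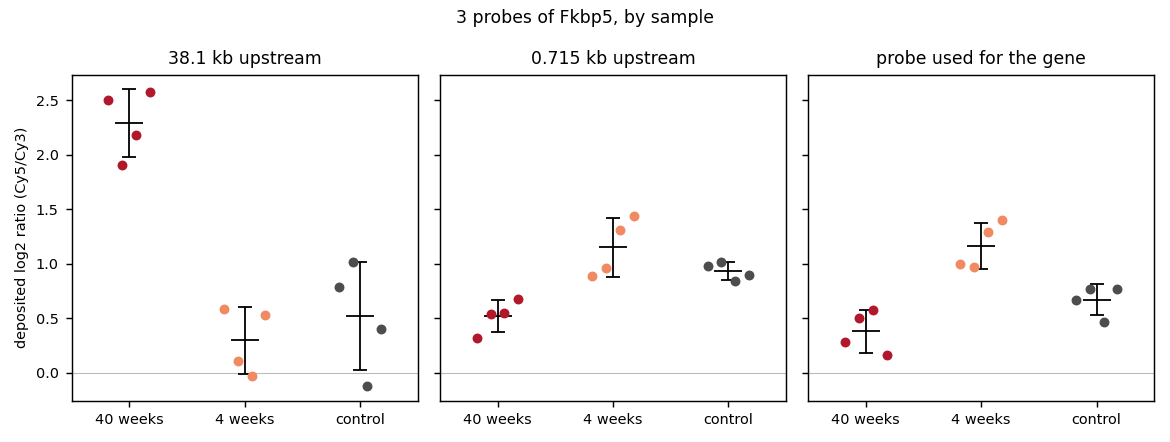
Deposited log2 ratio (vertical axis) of the Fkbp5 probes in each sample, with 40-week samples left, 4-week samples in the middle and control samples right. Points are samples and bars are group means with SD (n = 4 each). At the upstream probe the 40-week samples sit between 1.91 and 2.58 and all other samples at or below 1.02, while at the main probe the 40-week samples sit between 0.16 and 0.58.

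A gene's ratio in the controls went with the size of its 40-week difference across the array. Genes with a control ratio under -1.5 had a median 40-week difference of 0.83, and 92.4% of them were above 0. Genes with a control ratio over 1.5 had a median of -1.06, with 6.07% above 0. The control means of Ddit4 (-2.08) and Tsc22d3 (2.11) lie in these outer ranges. The control mean of Mt1 (-1.0) lies in the range from -1.5 to -0.5, where the median difference was 0.39, and that of Fkbp5 (0.67) and its upstream probe (0.52) in the range from 0.5 to 1.5, where it was -0.41.

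**Figure D4:**
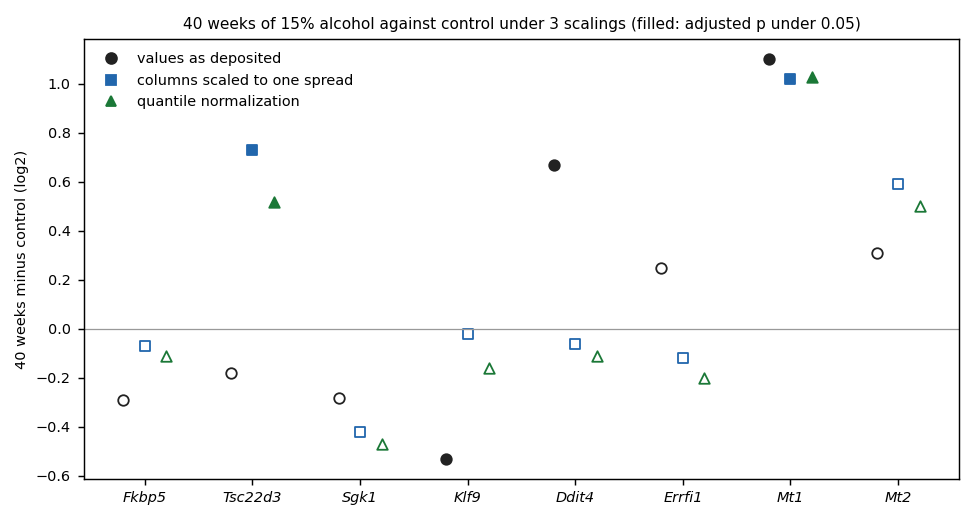
Difference between 40-week and control samples in log2 units (vertical axis) for the main probes of the 8 genes, with the columns as deposited, scaled to one spread and quantile-normalized. Filled marks have a limma adjusted p under 0.05. Mt1 (1.10, 1.02 and 1.03) keeps its size, while Ddit4 (0.67, -0.06 and -0.11) and Tsc22d3 (-0.18, 0.73 and 0.52) change sign.

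Between the alcohol groups, the deposited main-probe ratios of Fkbp5 and Klf9 were lower and that of Mt1 higher at 40 than at 4 weeks. The Fkbp5 ratio at 40 weeks was 0.579 of that at 4 weeks, and that of Mt1 was 1.66-fold. The upstream Fkbp5 probe went the other way, 3.99-fold higher at 40 weeks. In the same limma fit 3 of 8 genes were called, against 41.6% of all genes, and the median difference was -0.22, against -0.08 over all genes. The groups did not overlap for 3 of 8 genes, against 45.3% of all genes. This comparison and that of 40 weeks with control share the 40-week samples, and the values of each are given on their own.

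At the main Fkbp5 probe the deposited ratios were 0.28, 0.50, 0.58 and 0.16 in the 40-week samples, against 1.00, 0.97, 1.29 and 1.40 in the 4-week samples. Every 40-week sample was below every 4-week sample, and the difference was -0.79 ± 0.14 (limma adjusted p = 0.00128). It was -0.49 (adjusted p = 0.0263) after scaling and -0.57 (adjusted p = 0.0141) after quantile normalization, and Fkbp5 was called under each of the 17 alternative settings, with differences of -0.85 to -0.49. The nearby probe went the same way, at -0.63 ± 0.14 (adjusted p = 0.00457). The upstream probe had ratios of 2.5, 1.91, 2.18 and 2.58 in the 40-week samples, against 0.59, 0.11, -0.03 and 0.53 in the 4-week samples. It was higher in all 40-week samples, by 2.00 ± 0.25, 3.99-fold (adjusted p = 0.000137, against 43% of all kept probes called).

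Mt1 had ratios of -0.18, 0.01, 0.41 and 0.19 in the 40-week samples, against -0.84, -0.34, -0.81 and -0.51 in the 4-week samples. The groups did not overlap, and the difference was 0.73 ± 0.23 (limma adjusted p = 0.0255). It was 0.69 under both rescalings, with adjusted p of 0.0312 after scaling and 0.0371 after quantile normalization. The Mt1 call was lost without 40-week replicates 3 and 4 together (0.54, adjusted p = 0.214) and kept without the other-organ arrays (0.83, adjusted p = 0.00425). It was also lost without 4-week replicate 1 (0.66, adjusted p = 0.0648), 4-week replicate 3 (0.67, adjusted p = 0.0662), 40-week replicate 3 (0.63, adjusted p = 0.0759) or 40-week replicate 4 (0.70, adjusted p = 0.0600). Klf9 had ratios of 0.86, 1.07, 1.15 and 0.82 in the 40-week samples, against 1.63, 1.39, 1.59 and 1.47 in the 4-week samples. These did not overlap and differed by -0.55 ± 0.17 (adjusted p = 0.0213), but by 0.00 (adjusted p = 0.987) after scaling and -0.19 (adjusted p = 0.417) after quantile normalization. The Klf9 call was lost, too, without 4-week replicate 1 (-0.51, adjusted p = 0.0522) or 3 (-0.52, adjusted p = 0.0519) and without 40-week replicate 1 (-0.51, adjusted p = 0.0586) or 4 (-0.50, adjusted p = 0.0599). Without 40-week replicates 3 and 4 together Klf9 was at -0.56 (adjusted p = 0.0970), and without the other-organ arrays at -0.59 (adjusted p = 0.0326).

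The other genes did not pass between the alcohol groups as deposited. Errfi1 differed by -0.35 ± 0.17 (limma adjusted p = 0.111), and by -0.64 (adjusted p = 0.00886) after scaling. Ddit4 differed by 0.30 ± 0.19 (adjusted p = 0.219), and by -0.50 (adjusted p = 0.0363) after quantile normalization. Tsc22d3 differed by -0.10 ± 0.12 (adjusted p = 0.564) at its main probe, and by 0.83 (adjusted p = 0.00170) after scaling, while its other probes fell by 0.49 (adjusted p = 0.00520) and 0.58 (adjusted p = 0.0173) as deposited. Sgk1 differed by -0.43 ± 0.25 (adjusted p = 0.196) and Mt2 by 0.15 ± 0.27 (adjusted p = 0.687).

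The balance of Mt1 and Mt2, neighbours on chromosome 8, was also compared within arrays, a measure chosen after the values were seen. The Mt1 ratio minus the Mt2 ratio was -0.20, -0.38, -0.90 and -0.73 in the 40-week samples, -1.44, -0.97, -1.01 and -1.14 in the 4-week samples and -1.38, -1.58, -1.39 and -1.04 in the control samples. As deposited, all 40-week samples lay above all others, although 40-week replicates 3 and 4, where Mt2 was highest, came nearest to them. Means were -0.55 ± 0.32 in 40-week samples, -1.14 ± 0.21 in 4-week samples and -1.35 ± 0.23 in control samples (SD, n = 4 each). After scaling the means were -0.75 in 40-week samples, -0.98 in 4-week samples and -1.18 in control samples, and the 40-week samples (-1.27 to -0.26) overlapped both the 4-week (-1.29 to -0.83) and the control samples (-1.48 to -0.92).

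**Figure D5:**
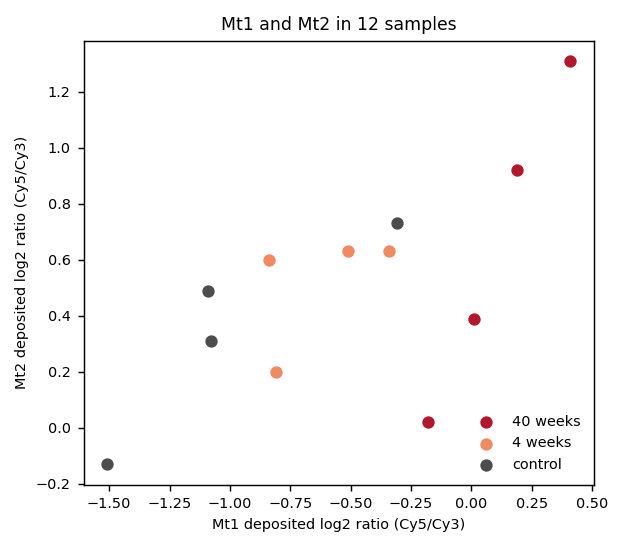
Deposited log2 ratio of Mt1 (horizontal axis) and of Mt2 (vertical axis) in each of the 12 samples, by group. The 40-week samples lie nearer to equal ratios (Mt1 minus Mt2 of -0.90 to -0.20) than the 4-week (-1.44 to -0.97) and control samples (-1.58 to -1.04), a separation that scaling the columns to one spread removed.

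After each group's mean was subtracted, the genes of the group varied largely apart from each other over the 12 samples. Of 28 pairs, 15 had a Pearson correlation above 0, with a median of 0.11 and a range of -0.50 to 0.78. Mt1 and Mt2 were the most alike (r = 0.78, Spearman's rho 0.86), followed by Klf9 and Errfi1 (r = 0.73, rho 0.67) and by Sgk1 and Ddit4 (r = 0.60, rho 0.42). Without the 2 samples farthest from the median, r was 0.78 for Mt1 and Mt2, 0.58 for Klf9 and Errfi1 and 0.44 for Sgk1 and Ddit4. Over 17417 genes with a symbol, those most like Fkbp5 included Rapgef2 (r = 0.922), Frs2 (0.918), Gdi2 (0.893) and Sec31a (0.887). Those most like the mean of Mt1 and Mt2 were Steap4 (0.971), Nnmt (0.946), S100a8 (0.946), Gbp7 (0.940) and Clec4d (0.939). The points share their array's labelling and normalization, and these values describe likeness over 12 samples only.

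Of 35 other genes known to be induced by glucocorticoids, 33 were measured. At 4 weeks, where 1.11% of all genes were called, 2 of the 33 rose and 0 fell, with a median difference of 0.01. Those were Arrdc2, an arrestin-like gene (0.92 ± 0.17, limma adjusted p = 0.0428), and Cdkn1a, the cell-cycle inhibitor p21 (0.63 ± 0.12, adjusted p = 0.0467). Both calls were lost whenever any 1 of the 8 arrays was left out, at differences of 0.80 to 1.03 and 0.55 to 0.67. Only 0 to 52 genes were then called over the whole array, against 229 with all 8 arrays. In Cy5 alone neither passed, at 0.72 for Arrdc2 (adjusted p = 0.145) and 0.63 for Cdkn1a (adjusted p = 0.0832). At 40 weeks against control 6 rose and 8 fell, 42.4% of the 33, against 42.6% of all genes, and the median was -0.17, against -0.08 over all genes. Il1r2, the decoy receptor for interleukin-1, fell by 2.78 (SE 0.23, adjusted p = 3.72e-06) and Crispld2, a secreted protein, by 2.27 (SE 0.21, adjusted p = 6.89e-06), but after quantile normalization they were at -0.40 (adjusted p = 0.0740) and -0.17 (adjusted p = 0.450). Arrdc2 rose by 1.17 ± 0.19 (adjusted p = 0.000482) and was called under all 17 alternatives. Glul and Pdk4, at -0.96 ± 0.19 and -0.75 ± 0.24, changed sign when the columns were scaled. Between 40 and 4 weeks, where 41.6% of all genes were called, 3 of the 33 rose and 9 fell, with a median of -0.10. Bcl6, a transcriptional repressor, rose by 1.16 (adjusted p = 0.00131), and Crispld2 (-2.06), Il1r2 (-1.92), Angptl4 (-1.32) and Il6ra (-0.95) fell. After scaling, Crispld2 was at -0.14 (adjusted p = 0.634) and Il1r2 at 0.18 in that comparison, and the Angptl4 call was lost without 4-week replicate 4 (-0.96, adjusted p = 0.102).

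Of 17 genes that glucocorticoids are known to repress, most of them cytokines, chemokines and proteases, 12 were measured. None was called at 4 weeks by limma, against 1.11% of all genes, with a median difference of 0.04. At 40 weeks against control 4 rose and 0 fell, 33.3% of the 12, against 42.6% of all genes called, and the median was 0.71, against -0.08 over all genes. Of the 12, 9 had control ratios under -1.5, a range in which the median over the whole array was 0.83 and 92.4% of genes were above 0. The 4 were Cxcl10 (3.04 ± 0.82, adjusted p = 0.0112), Ccl2 (1.94 ± 0.36, adjusted p = 0.00141), Tnf (0.76 ± 0.18, adjusted p = 0.00659) and the protease gene Mmp9 (0.74 ± 0.20, adjusted p = 0.0117). Cxcl10 was at 1.28 (adjusted p = 0.100) without 40-week replicates 3 and 4, while scaling took Mmp9 to -0.07 and Tnf to 0.05 (adjusted p = 0.865). Between 40 and 4 weeks the median was 0.98, against -0.08 over all genes, of which 41.6% were called. There 4 of the 12 rose (Cxcl10, Ccl2, Icam1 and Tnf) and 1, Ccl20, fell (-1.37, adjusted p = 0.0426). Of these, Tnf was at 0.10 after scaling, Icam1 at 0.54 (adjusted p = 0.393) without 40-week replicates 3 and 4, and Ccl20 at -0.80 (adjusted p = 0.0641) without 4-week replicate 2. General leukocyte markers averaged -0.52, -0.51, 0.09 and 0.06 in 40-week replicates 1 to 4, so that replicates 3 and 4 were the higher, and -0.09 to -0.01 in the 4-week samples and -0.09 to 0.10 in the control samples as log2 ratios.

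Of 15 genes of the receptor and of hormone handling, 14 were measured. Nr3c1, the receptor itself, differed by -0.07 ± 0.13 at 4 weeks against control, by 0.12 ± 0.13 at 40 weeks against control and by 0.18 at 40 against 4 weeks, with limma adjusted p of 0.820, 0.467 and 0.282. Fkbp4, the co-chaperone with the opposite action to Fkbp5, did not pass either, at -0.21 ± 0.19, -0.28 ± 0.17 and -0.08 in the same comparisons. None of the 14 was called at 4 weeks, against 1.11% of all genes, and 4 had an unadjusted p under 0.05, against 18% of all genes. In the deposited ratios of 12 samples 1 rose, while 6.01% of all genes were called. On the scanner ratios Hsd11b1, which regenerates active hormone, was at 0.59 ± 0.19 (adjusted p = 0.172). The chaperone gene Hsp90ab1, named after its values were seen, was nearest to the threshold, at 0.59 ± 0.12 (adjusted p = 0.0563). At 40 weeks against control 3 rose and 2 fell, 35.7% of the 14, against 42.6% of all genes. Those that rose were Hsp90ab1 (0.62 ± 0.11), the coactivator gene Ncoa2 (0.94 ± 0.17) and the corepressor gene Ncor1 (0.53 ± 0.15), which was at 0.32 (adjusted p = 0.104) without the arrays with markers of other organs. Nr3c2, the mineralocorticoid receptor, fell by 1.03 (SE 0.17, adjusted p = 0.000567) and Hsd11b1 by 0.95 (SE 0.19, adjusted p = 0.00235). Nr3c2 was called under all 17 alternatives, while Hsd11b1 was at -0.10 (adjusted p = 0.712) after scaling. Between 40 and 4 weeks, where 41.6% of all genes were called, 2 of the 14 rose and 2 fell. Those that fell were Nr3c2 (-1.47, adjusted p = 8.58e-05) and Hsd11b1 (-1.57, adjusted p = 0.000131). Hsd11b2, which inactivates the hormone, was not among the genes fitted.

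Of 10 zinc and metallothionein genes, 9 were measured. At 4 weeks, where 1.11% of all genes were called, 1 of the 9 was called. Mt4, the metallothionein of squamous epithelia, fell (-1.58 ± 0.24, limma adjusted p = 0.0344). In Cy5 alone, however, its difference was -0.23 and in the pool's Cy3 channel 1.27 (adjusted p = 0.00249). The Mt4 call was lost whenever any 1 array was left out, at differences of -1.69 to -1.41, when 0 to 52 genes were called over the array. At 40 weeks against control Mt3 (-0.59 ± 0.12, adjusted p = 0.00276) and Mt4 (-2.79 ± 0.23, adjusted p = 3.96e-06) fell, and scaling took them to -0.17 and -0.16. These were 22.2% of the 9, against 42.6% of all genes. Between 40 and 4 weeks, where 41.6% of all genes were called, Mt3 and Mt4 fell and Slc39a1, a zinc importer gene, rose by 0.48. After scaling, however, Mt4 was at 1.33. Mtf1, the metal-sensing factor, was at -0.06 for 4 weeks against control, at -0.13 for 40 weeks against control and at -0.11 for 40 against 4 weeks, with adjusted p of 0.868, 0.447 and 0.534. Median differences of this list were -0.01, -0.13 and -0.16 in that order, against -0.02, -0.08 and -0.08 over all genes.

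All 12 paralogues of the group's genes were measured, and Mt3, Mt4, Fkbp4 and Klf15 also stand in other lists. At 4 weeks 1 of the 12, Mt4, fell, while 1.11% of all genes were called. At 40 weeks against control 2 rose and 5 fell, 58.3% of the 12, against 42.6% of all genes. The median was -0.26, against -0.08 over all genes. Tsc22d2 (1.10 ± 0.25, limma adjusted p = 0.00462) and Klf13 (0.83 ± 0.16, adjusted p = 0.00166) rose, while the main probes of Tsc22d3 and Klf9 were at -0.18 and -0.53. Sgk2 (-1.15 ± 0.35, adjusted p = 0.0205) and Ddit4l (-0.75 ± 0.16, adjusted p = 0.00341) were among those that fell, and after scaling Sgk2 was at -0.02 and Ddit4l at 0.45. Between 40 and 4 weeks, where 41.6% of all genes were called, 2 rose and 6 fell. The median was -0.32, against -0.08 over all genes.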

How the data were processed

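RNA of 12 forestomach samples was measured on 2-colour Agilent arrays, grouped and numbered by the sample titles. For the 8 arrays of the 4-week and control groups, the authors deposited scanner output with mean and median spot intensity on a linear scale and the scanner software's own processed signals. The deposited files also hold log10 ratios of the processed signals, used here only through the processed signals, and other values of 0 or 1 as flags, per the file headers. The headers name Agilent Feature Extraction 10.7.3.1, against 9.1 in the submitters' processing notes. For all 12 samples the authors deposited log2 ratios of Cy5 over Cy3. Their making is not given in the sources used here. On the 8 arrays they correlated with the scanner ratios at 0.974 to 0.983. The 40-week scanner files were not used here. Probe positions are on mm9, per the file headers.

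Scanner signals were background-corrected with normexp (offset 50), normalised within arrays by loess, and averaged over spots of a probe, leaving out 1639 control spots of 45018 and 183 to 268 outlier spots per array. Probes were named through the reference gene table by accession (26918), symbol (5082) or synonym (817), kept the file's name (1440) or had none (6917). The low-signal filter asked for Cy5 well above background on 3 or more of the 4 arrays of the 4-week or the control group, and 30450 of 41174 probes passed. No Cy5 probe was saturated. The number of arrays is one limit on precision. The 40-week arrays had no part in that filter. The brightest kept probe stood for a gene (20720 genes, 17417 with a symbol). limma 3.58.1 (R 4.3.3) compared 4-week with control samples on scanner ratios and on each channel after quantile normalization, and the 40-week comparisons on the deposited ratios of 12 samples. Benjamini-Hochberg adjustment ran over all genes fitted, with a threshold of 0.05, and differences between probes on an array, chosen after the values were seen, were not tested.

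The members and the gene lists were chosen with earlier results of these data known. All members were named, with up to 5 called genes of each other list per comparison by size of change, and some receptor and zinc genes (Nr3c1, Nr3c2, Hsd11b1, Hsd11b2, Fkbp4, Mt3, Mt4 and Mtf1) whatever their values. Likeness was Pearson's r after subtraction of group means, and 1 of the 5 genes most like Fkbp5 is not reported here. Alternatives changed the background correction, normalization, filter, probe choice and array weights, left out arrays, and added the replicate number as a block. The numbers were not taken to pair the samples: same-numbered samples' deviations correlated at -0.44 to 0.41 between the 4-week and control groups, at 0.06 to 0.20 between the 40-week and control groups and at -0.20 to 0.18 between the 40-week and 4-week groups, so not every pair was over 0.1. On simulated data with known changes, the 4-week fit recovered 64% of 100 genes changed by 1 on the log2 scale and 92% of those changed by 2, over 20654 genes, and the 40-week fit 68% and 91% over 20720 genes. False calls numbered 6 and 12. The simulated noise was independent between genes, without a slide effect or narrower 40-week columns. Recovery of changes under 1 was not simulated, and the largest main-probe difference of the group at 4 weeks was 0.62. Figures were drawn with matplotlib 3.10.9.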

Additional observations from a re-analysis of the deposited data

Results flagged for a closer look

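Samples that stood apart from the other 3 of their group were looked for in 39 sets of 4 deposited log2 ratios, one set per probe and group. In 2 sets 1 sample stood apart by Dixon's criterion, and chance finds about 1 in 20 sets. The Tsc22d3 probe at chrX:137074393-137074452 had a ratio of 2.06 in control replicate 2, while the other controls had 1.73 to 1.77. Mt2 had a ratio of 0.20 in 4-week replicate 3, while the other 4-week samples had 0.60 to 0.63.

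The response against the same controls differed between the alcohol groups for 3 of the 8 genes, a share close to the 41.6% of all genes. It was tested directly as 40 weeks minus 4 weeks in limma's fit of 12 samples. The difference was -0.79 for Fkbp5 (adjusted p = 0.00128), -0.55 for Klf9 (adjusted p = 0.0213) and 0.73 for Mt1 (adjusted p = 0.0255). For the main probe of Fkbp5, 40-week samples were at -0.29 ± 0.14 against control and 4-week samples at 0.50 ± 0.14 in the same fit. The upstream Fkbp5 probe went the other way for 40 weeks minus 4 weeks, at 2.00 ± 0.25 (limma adjusted p = 0.000137). The nearby Fkbp5 probe was at -0.63 ± 0.14, in the direction of the main probe. With the columns scaled to one spread the differences were -0.49 for Fkbp5 (adjusted p = 0.0263), 0.00 for Klf9 (adjusted p = 0.987) and 0.69 for Mt1 (adjusted p = 0.0312). Alcohol concentration and duration differ together between the groups and cannot be told apart, nor can the age of the mice or a difference in saccharin.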

How the results depend on the processing

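At 4 weeks against control, 0 of the 8 genes passed as a ratio or in either channel under every alternative run, while the number of genes called over the array was 229 and went from 0 to 1245. Of all called genes 25.3% were higher at 4 weeks, against 36.3% with processed signals and 39.4% in the deposited table. Over all comparisons, alternatives left direction and side of the threshold as they were for 736 of 837 values of these genes, took away a call in 56, gave one in 7 and turned the sign in 48, with some counted under both call and sign, and the cause of the changes below was not tested. At 4 weeks, median centring gave -0.13 and -0.09 for the other Tsc22d3 probes, -0.03 for the nearby Fkbp5 probe, -0.19 for Sgk1, -0.01 for Mt1, -0.28 for Mt2 and -0.06 for Mt3. Scaling to one spread gave 0.09 for Tsc22d3, 0.13 for Klf9 and 0.06 for Mtf1, and processed signals gave 0.02 for Tsc22d3, 0.04 for Klf9 and 0.04 for Mtf1. Klf9 was at 0.00 with an offset of 16 and 0.01 in the deposited table, and a Tsc22d3 probe at -0.02 without the arrays with markers of other organs (4-week replicate 2 and control replicates 3 and 4). Leaving out 1 array gave ranges of -0.15 to 0.14 for Klf9, -0.08 to 0.29 for Sgk1, -0.13 to 0.01 for Nr3c1, -0.13 to 0.04 for Mtf1 and -0.08 to 0.17 for 1 of the other Tsc22d3 probes. In Cy5, Mt2 was at -0.08 with median centring, Sgk1 at 0.17 with processed signals and Tsc22d3 at -0.11 without the other-organ arrays. In Cy3, median centring gave 0.01 for Ddit4 and 0.07 for Mt2, and Fkbp5 was at 0.09 with processed signals and 0.00 without the other-organ arrays.

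At 40 weeks against control, 3 of the 8 genes were called, 5 when every kept probe counted, 1 without 40-week replicates 3 and 4, 2 after scaling and 2 after quantile normalization, and 2 to 3 when 1 array was left out. Without the other-organ arrays 2 were called, against 7505 genes over the array. Over the array 8819 of 20720 genes (42.6%) were called, 5054 without 40-week replicates 3 and 4, 7933 after scaling and 7871 after quantile normalization. Of all 30450 kept probes 12855 were called (42.2%), and 7210 to 9254 genes were called when 1 array was left out. Scaling gave 0.29 for a Tsc22d3 probe and 0.73 for its main probe, -0.06 for Ddit4, -0.12 for Errfi1, -0.07 for Nr3c1, 0.39 for Mtf1, 0.48 for Glul, 0.86 for Pdk4, -0.07 for Mmp9 and 0.45 for Ddit4l. Quantile normalization gave 0.08 and 0.52 for Tsc22d3, -0.11 for Ddit4, -0.20 for Errfi1, -0.11 for Nr3c1, 0.23 for Mtf1, 0.40 for Glul, 0.90 for Pdk4, -0.10 for Mmp9 and 0.28 for Ddit4l. The second Klf9 probe was at 0.00 and Mt2 at -0.14 without 40-week replicates 3 and 4; that Klf9 probe was at -0.11 without the other-organ arrays and at -0.15 to 0.14 when 1 array was left out. At 40 against 4 weeks, 3 genes were called, 4 after scaling, 5 after quantile normalization, 4 when every kept probe counted, 1 without 40-week replicates 3 and 4, and 1 to 3 when 1 array was left out (1 without 4-week replicate 1, 4-week replicate 3 or 40-week replicate 4). Over the array 8612 of 20720 genes (41.6%) were called there, 8459 after scaling, 8328 after quantile normalization and 4674 without 40-week replicates 3 and 4. Of all 30450 kept probes 13092 were called (43%), and 7086 to 8223 genes were called when 1 array was left out. Scaling gave 0.25 and 0.83 for Tsc22d3, 0.20 for the second Klf9 probe, -0.41 for Ddit4, -0.03 for Nr3c1, 1.33 for Mt4, 0.42 for Mtf1, 0.18 for Il1r2 and 0.58 for Ddit4l. Quantile normalization gave 0.57 for Tsc22d3, -0.50 for Ddit4, -0.06 for Nr3c1, 0.51 for Mt4, 0.25 for Mtf1 and 0.27 for Ddit4l. Mt2 was at -0.31 without 40-week replicates 3 and 4 and at -0.07 to 0.36 when 1 array was left out, and Fkbp4 at -0.21 to 0.04.

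With the replicate number as a block, 0, 3 and 3 of the 8 genes were called at 4 weeks against control, 40 weeks against control and 40 against 4 weeks, as without it, and genes called over the array were 0, 8694 and 8430, against 229, 8819 and 8612. Not every sample correlated best with its own number.

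Each group had 4 arrays, and the 40-week comparisons rest on deposited ratios whose columns spread less than the others. The 40-week group also had no controls of its own age. At 4 weeks each group lay on its own slide, so slide and alcohol cannot be told apart, and no dye swap was made. The second Sgk1 probe was too dim to use.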

Other observations

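One probe of the group was not well above background in Cy5 on any of these 8 arrays: the Sgk1 probe 101 kb upstream of the gene's main probe had net Cy5 signals of 1.75 to 11 on them, where median net Cy5 was 40.1 to 104 on the 4-week arrays and 107 to 142 on the control arrays. Among the genes that glucocorticoids induce, the clock gene Per1 and the phosphatase gene Dusp1, both chosen after their values were seen, were at 0.50 ± 0.19 (limma adjusted p = 0.222) and 0.03 ± 0.15 (adjusted p = 0.940) at 4 weeks against control.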
